A study of Mus musculus with 24 samples.

Results

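Wounded cheek skin of CD1 mice was compared with unwounded cheek skin of the same animals 3 days after injury. The comparison used every library whose label gives the cheek as the anatomical site, which is 8 of the 24 libraries of the series: 4 from wounds and 4 from healthy skin beside them, with 1 of each from each of 4 mice. The other 16 libraries came from abdomen and back, 4 mice per site and none of them a cheek mouse, and served here to estimate the spread within mice and to compare sites. All 12 mice belonged to an in-house colony of the outbred CD1 stock, were 7 weeks old and were labelled as synchronised in telogen, the resting phase of the hair cycle. The cheek wound was a 2 mm punch through the outer skin of the side of the face. Each cheek mouse carried 1 wound, whereas abdomen and back mice carried 2, so wound number and site cannot be told apart. The unwounded sample was a 2 mm punch of skin near the wound, so it represents uninjured skin of an injured animal. Whole tissue was sequenced, and the values are FPKM, fragment counts scaled to transcript length and to the mapped fragments of the library.

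Skin closes a full-thickness wound in overlapping phases. Damaged keratinocytes and resident immune cells release chemokines that draw neutrophils and then monocytes out of the blood, keratinocytes at the margin change their keratins and migrate over a provisional matrix, and fibroblasts and vessels fill the bed with granulation tissue. Dermal fibroblasts of the face descend from the neural crest, those of the trunk from mesoderm, and the contrast between those origins was the question behind the sampling of cheek, abdomen and back.

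The 8 libraries were similar in summed FPKM and in the number of genes detected. Their summed FPKM ranged from 525638 to 541292 in unwounded skin and from 532586 to 547623 in wounds, and 16242 to 16432 and 16404 to 16577 genes were above 0. Read counts were not analysed here, so the depth of the libraries is unknown. The labelled tissue was checked by its defining genes. Keratins of basal and suprabasal epidermis and collagens of the dermis were high in all 8 libraries. Skeletal muscle was abundant too: the gene with the highest mean level in unwounded cheek was Acta1, skeletal muscle actin, at 5749 ± 1608 FPKM (SD, n = 4), and in wounds it was the translation factor Eef1a1 at 5168 ± 299 FPKM, followed by Krt14, the basal keratin, at 4866 ± 1901. Of 17 salivary and lacrimal gland genes, 11 had values and 5 were above the filter on low values. Among those 5, Amy1 was at 8.77 to 24.2 FPKM and Car6 at 9.48 to 69.3 in unwounded cheek. Smr3a, a salivary protein gene, was listed at 0 in all 8 libraries.

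The unwounded library of mouse 4 stood apart in its hair genes. Hair shaft and inner root sheath genes summed to 11244 FPKM there, against 117, 90 and 173 in the unwounded skin of mice 1 to 3, 35.8 to 69.5 in the cheek wounds, and 35.2 to 249 in the libraries of the other sites. Krt25, an inner root sheath keratin, was at 1133 FPKM in that library, at 5.74 in unwounded mouse 3 and at 0.19 or less in the other 6 cheek libraries. Shh, the hedgehog ligand of growing follicles, was at 6.95 and 3.98 FPKM in the unwounded skin of mice 4 and 3 and at 0.21 or less in the others. These levels go against the telogen label for mouse 4, and for mouse 3 to a smaller degree. The hair, division and other results they touch most are given with and without those animals. Krt25 was picked after its values were seen.

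Of 18368 genes, 14423 reached 0.5 FPKM in at least 4 of the 24 libraries and were tested. Changes are log2 ratios of wound to unwounded skin on the log2(FPKM + 0.5) scale, which understates the change of genes with low values. They were fitted with limma, with a term for each mouse, and are given with the standard error (SE) and an adjusted p (Benjamini-Hochberg over all tested genes). A gene is said to have risen or fallen when the adjusted p was below 0.001. By that rule 1254 genes changed, 8.69% of those tested; 938 rose (6.5%) and 316 fell (2.19%). At an adjusted p below 0.05 the share was 36.6%, with 19.7% higher and 16.9% lower. With 4 mice, an exact sign-change test on a single gene cannot go below p = 0.125, so the calls rest on the spread pooled over genes and sites. Within a site the labels name the mice as separate animals. Because each mouse has its own term, the p-values measure how far the wound change varies between mice of a site, not how far their levels vary.

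The rises were larger than the falls. The median rise was 1.22 and the median fall 0.79 in size. A rise of more than 2 was seen for 205 genes and of more than 5 for 27, whereas 3 genes fell by more than 2. Each of the 938 genes was higher in the wound in all 4 mice and each of the 316 lower. For 914 and 294 of them the ranges of the 4 wounds and the 4 unwounded samples did not overlap, which held for 31.7% of all tested genes (16.7% with the wounds above, 15% below). A higher wound value in all 4 mice was seen for 25% of all tested genes and a lower value for 25.4%. The median change over all tested genes was 0.01. Quantile normalisation of the libraries gave 855 genes higher and 515 lower, and median-ratio scaling gave 875 and 342, so the balance of the split depends on the scaling. Leaving out cheek mouse 1, 2, 3 or 4 gave 742, 543, 642 and 985 changed genes, and leaving out mice 3 and 4 together gave 317.

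**Figure D1:**
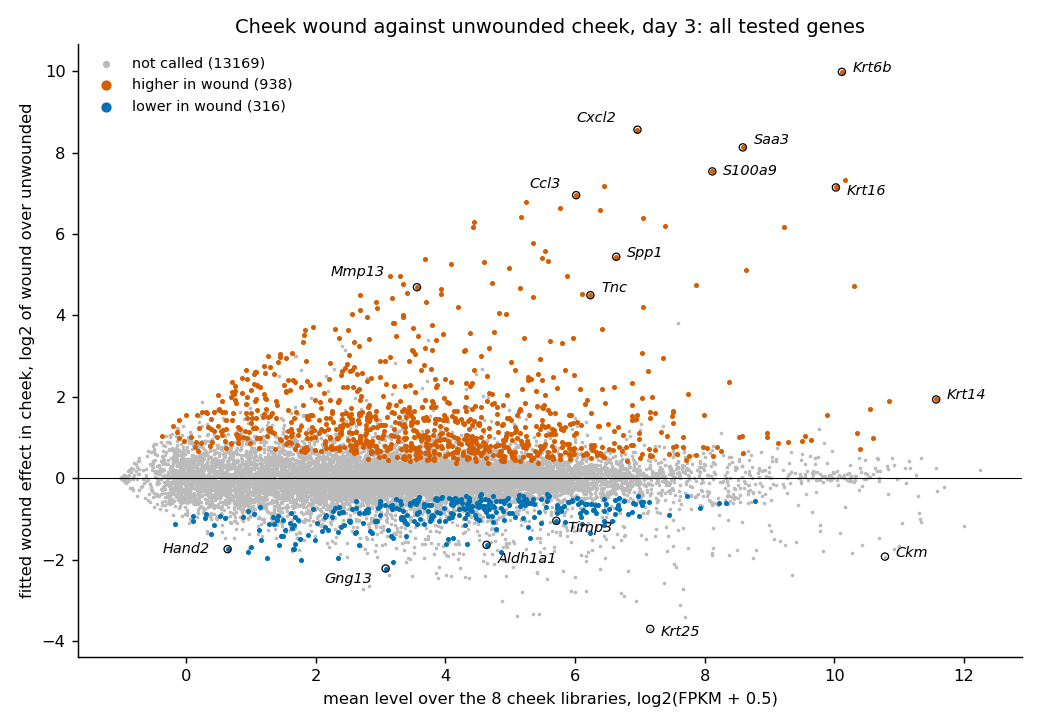
Fitted wound effect in cheek (vertical axis, log2 of wound over unwounded) against the mean level over the 8 cheek libraries (horizontal axis, log2 of FPKM + 0.5), 1 point per tested gene, with genes called at adjusted p below 0.001 in colour. The 938 higher genes reach 9.98 (Krt6b), while the 316 lower genes reach -2.22 (Gng13), and Krt25 (-3.70) and Ckm (-1.92) did not pass the test.

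The largest rise of any gene was in a keratin of injured epidermis. Krt6b, on chromosome 15 at 101676023 to 101680293 of GRCm38, was at 0.36, 0.69, 4.49 and 2.91 FPKM in the unwounded skin of mice 1 to 4 and at 1140, 1910, 3211 and 2599 in their wounds, a change of 9.98 (SE 0.41, adjusted p = 1.6e-07). Its pairing partner Krt16 went from 9.41 to 17.86 FPKM in unwounded skin to 983 to 3312 in wounds (7.14, SE 0.41). Krt6a was already at 48.5 to 175 FPKM without injury and reached 1189 to 4041 (4.71, SE 0.39). All 4 wounds lay far above all 4 unwounded samples for these keratins, and Krt17, a hair follicle and wound keratin with unwounded levels of 438 to 1089 FPKM, changed by 0.86 (adjusted p = 0.0069). Of the 19 tested wound keratins, connexins and small proline-rich proteins, 13 rose and none fell (8 to 13 rose when any 1 cheek mouse was left out), with a median change of 4.53.

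Small proline-rich proteins are cornified envelope precursors that stressed keratinocytes induce. Sprr1b went from 3.89, 11.4, 25.2 and 30.3 FPKM to 436, 1065, 1965 and 1251 (6.18, SE 0.43), Sprr2d from 0.93 to 47.1 in unwounded skin to 88.5 to 701 in wounds (4.75, SE 0.53), and Sprr2f from at most 1.28 to 13.99 to 44.7 (5.26, SE 0.39). Mouse 1 had the lowest wound level of all these genes. Sprr2k was listed at 0 in the 4 unwounded samples and at 0.74 to 1.71 FPKM in the wounds. Gjb6, a gap junction gene of hyperproliferative epidermis, rose by 3.60 (SE 0.54). Its partner Gjb2 changed by 3.82 with an adjusted p of 0.0014; unwounded mouse 4 was at 235 FPKM against 6.32 to 15.4 in mice 1 to 3. Krt6a and Krt6b, the Sprr2 genes and the stefins named later have near-identical copies among which the authors' counting could split reads, so the value of a single copy is uncertain.

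Keratins of resting epidermis moved less. Krt14 rose in each mouse, from 1007, 1071, 1463 and 1314 FPKM to 2850, 4085, 7327 and 5201 (1.94, SE 0.22), while its partner Krt5 changed by 0.50 (adjusted p = 0.0038). Krt15, a keratin of quiescent basal and bulge cells, changed by -0.83 (adjusted p = 0.0015), lower in all 4 mice. Among 13 basal keratinocyte genes 3 rose, Krt14, Sfn and Itgb1 (1 or 2 without any 1 cheek mouse). Among 30 genes of resting differentiation only Krt1 (1.90, SE 0.19) and the cornification protease Casp14 (2.33, SE 0.34) rose (1 to 3 without any 1 cheek mouse) and none fell. Late differentiation genes pointed both ways without passing the test. The transglutaminase Tgm3 changed by 2.55 (adjusted p = 0.0025), the filaggrin relative Flg2 by -1.41 (adjusted p = 0.0011), and Krt77 by -1.56 (adjusted p = 0.0085).

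Some genes for keratinocyte adhesion and crawling were higher in the wound. Of 14 integrin and laminin-332 genes 5 rose and none fell, and the same 5 rose when any 1 cheek mouse was left out. Itga5, which with Itgb1 forms the fibronectin receptor, went from 9.74, 10.4, 9.13 and 8.73 FPKM to 32.4, 34.2, 31.2 and 30.3 (1.70, SE 0.09, adjusted p = 1.1e-07). The spread between mice was a small part of that change. Lama3, a laminin-332 chain, rose by 1.78 (SE 0.21), podoplanin (Pdpn) by 1.66 (SE 0.15) and the hyaluronan receptor Cd44 by 1.20 (SE 0.13). Lamb3, another chain, changed by 0.76 (adjusted p = 0.0043).

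Neutrophil-attracting chemokines went from nearly undetected to abundant. Cxcl2 was at 0.12, 0, 0.06 and 0.35 FPKM in unwounded skin and at 242, 246, 370 and 135 in wounds (8.56, SE 0.32, adjusted p = 6.2e-08). Cxcl3 was at 0.12 or less in unwounded skin and at 43.2, 33.9, 67.96 and 22.5 in wounds (6.18, SE 0.21), and Cxcl1 at 0.27 to 0.47 and then 16.9, 18.1, 32.4 and 12.02 (4.55, SE 0.35). For all 3 genes the wound of mouse 3 was highest and that of mouse 4 lowest. They sit together on chromosome 5, and their upstream sequences are shown because they share a run of bases at a similar distance from the start. The lines give the 120 bases before each transcription start on the plus strand, from RefSeq on GRCm38.p6, at chr5:90891125-90891244 for Cxcl1, chr5:90903779-90903898 for Cxcl2 and chr5:90785981-90786100 for Cxcl3. Capitals mark GGGAATTTCCC (GGGAAATTCCC on the other strand), the longest run of bases common to the 3 stretches, which holds a kappa B type motif, the kind of site that NF-kappa B proteins recognise.
Cxcl1: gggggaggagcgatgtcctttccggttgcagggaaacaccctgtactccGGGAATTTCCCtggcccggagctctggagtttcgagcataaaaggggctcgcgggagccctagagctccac
Cxcl2: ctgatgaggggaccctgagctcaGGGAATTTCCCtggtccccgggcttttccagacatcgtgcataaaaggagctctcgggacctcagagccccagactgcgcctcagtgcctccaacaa
Cxcl3: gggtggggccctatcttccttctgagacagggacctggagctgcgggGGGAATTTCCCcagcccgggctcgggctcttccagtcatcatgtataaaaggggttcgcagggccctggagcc
The first base of the run lies 71 bases before the start in Cxcl1, 97 in Cxcl2 and 73 in Cxcl3, in the orientation of the gene each time. Within 250 bases upstream, with both strands searched, this run of 11 bases was found in 14 of 27025 genes (0.0518%), in 7 of 11449 tested genes with a sequence (0.0611%), in 3 of 729 that rose (0.412%) and in 0 of 253 that fell. The 3 genes that rose with it are these chemokines, and the run was read from them, so the shares describe the choice. Genes and run were picked after the values were seen, and a match describes letters, not binding.

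Other chemokines followed the same direction. Ccl3 and Ccl4, which attract monocytes and other leukocytes, went from below 1 FPKM in every unwounded sample to 126, 151, 181 and 54.5 and to 99.9, 127, 164 and 40.2 (6.95, SE 0.27, and 6.63, SE 0.36). Cxcl5, a keratinocyte-derived neutrophil attractant, was at 0.04 or less and then at 8.78, 14.99, 43.03 and 32.01 (5.38, SE 0.44). Monocyte attractants had higher baselines, and Ccl2 rose by 2.51 (SE 0.24) and Ccl7 by 2.09 (SE 0.23). Ccl24, an eotaxin made by resident macrophages, fell by 1.49 on the log2 scale (SE 0.21), from 8.45 to 35.1 FPKM to 2.52 to 13.8. In all, 11 of 30 chemokines rose and 1 fell (9 to 11 and 0 without any 1 cheek mouse). Of 18 receptors 7 rose and none fell, led by Cxcr4 (2.30, SE 0.15), Ccr1 (3.54, SE 0.24) and Cxcr2 (2.98, SE 0.26), the receptor for Cxcl1, Cxcl2 and Cxcl3. Cxcr2 was at 0.90 to 1.70 FPKM in unwounded skin and at 7.68, 10.2, 27.7 and 16.1 in wounds.

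Genes of neutrophils themselves were among the largest changes. S100a9 and S100a8, the calprotectin subunits that fill neutrophil cytosol and are also made by wounded keratinocytes, went from 1.55 to 3.24 FPKM to 584, 509, 791 and 323 (7.54, SE 0.41) and from 2.05 to 6.46 to 377, 257, 493 and 185 (6.19, SE 0.54). Defining surface genes were near 0 before injury. Clec4d went from at most 0.37 FPKM to 46.4 to 112 (6.41, SE 0.30), Trem1 from at most 0.07 to 8.10 to 23.2 (4.96, SE 0.31) and Csf3r, the G-CSF receptor, from 1.04 to 1.46 to 13.9 to 39.7 (3.77, SE 0.23). Of 25 neutrophil genes 18 rose and none fell (16 or 17 without any 1 cheek mouse), with a median of 3.51 and medians in single mice from 2.92 to 4.32. The granule genes Ngp and Mpo, made in the marrow, did not pass the threshold. Ngp changed by 1.04 (adjusted p = 0.026) and reached at most 0.94 FPKM in a wound. Mpo, myeloperoxidase, went from 9.01 to 19.2 to 2.11 to 7.29 (-1.70, adjusted p = 0.0010, just outside the threshold). In bulk tissue, a change in the number of cells of a type and a change in RNA per cell cannot be told apart.

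Antimicrobial and acute phase genes rose with them. Saa3, a serum amyloid A made locally in inflamed tissue, went from 1.70, 1.96, 1.23 and 1.80 FPKM to 272, 327, 1464 and 1003 (8.13, SE 0.56). The stefin cluster of chromosome 16, cysteine protease inhibitors, included BC100530 at 4.87 to 43.1 and then 1366 to 2821 FPKM (7.34, SE 0.58) and Gm5416 at 0.96 or less and then 46.01 to 88.8 (6.79, SE 0.45). 2610528A11Rik on chromosome 14 went from 0.18 to 2.05 to 73.9 to 259 (7.18, SE 0.36). Wound levels of Saa3 differed more than 5-fold between mice, yet the lowest was above 200 FPKM. Of 25 pattern recognition and antimicrobial genes, 14 rose and none fell (10 to 14). Slpi, a protease inhibitor of epithelia, rose by 5.16 (SE 0.46), Tlr13 by 2.88 (SE 0.16) and Tlr1 by 2.40 (SE 0.15). Tlr3, a sensor of double-stranded RNA, changed by 0.28 (SE 0.20, adjusted p = 0.29), and the constitutive keratinocyte defensin Defb6, at 1112 to 1830 FPKM in unwounded skin, changed by -0.71 (adjusted p = 0.015).

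Interleukin-1 genes rose widely. Il1b went from 3.58, 1.68, 4.38 and 1.16 FPKM to 164, 255, 427 and 198 (6.39, SE 0.40), and Nlrp3, the sensor of the inflammasome that activates it, from 0.10 to 0.37 to 10.7 to 22.2 (4.19, SE 0.23). The antagonist Il1rn rose by 1.67 (SE 0.15), the alarmin Il33 by 2.48 (SE 0.30) and the epidermal member Il1f9 by 1.27 (SE 0.13), while Il1a changed by 0.82 (adjusted p = 0.0080). In the family as a whole 11 of 18 genes rose (7 or 8 without any 1 cheek mouse) and none fell. The decoy receptor Il1r2 changed by -0.47 (adjusted p = 0.013). Of 28 genes of the interleukin-6, interleukin-20 and TNF groups 10 rose (6 to 9) and none fell. Osm, oncostatin M, went from 0.39 or less to 10.3 to 17.5 FPKM (4.34, SE 0.32) and Tnf from 0.67 to 1.24 to 7.62 to 22.4 (3.49, SE 0.27). Csf3, which encodes G-CSF, was listed at 0 in all unwounded samples and at 6.84, 4.57, 9.41 and 3.57 FPKM in wounds. Il6 stayed low, at 0.59 to 2.60 FPKM in wounds (1.08, adjusted p = 0.0055), and Il11 likewise at 0.63 to 2.38 (1.33, adjusted p = 0.0015).

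**Figure D2:**
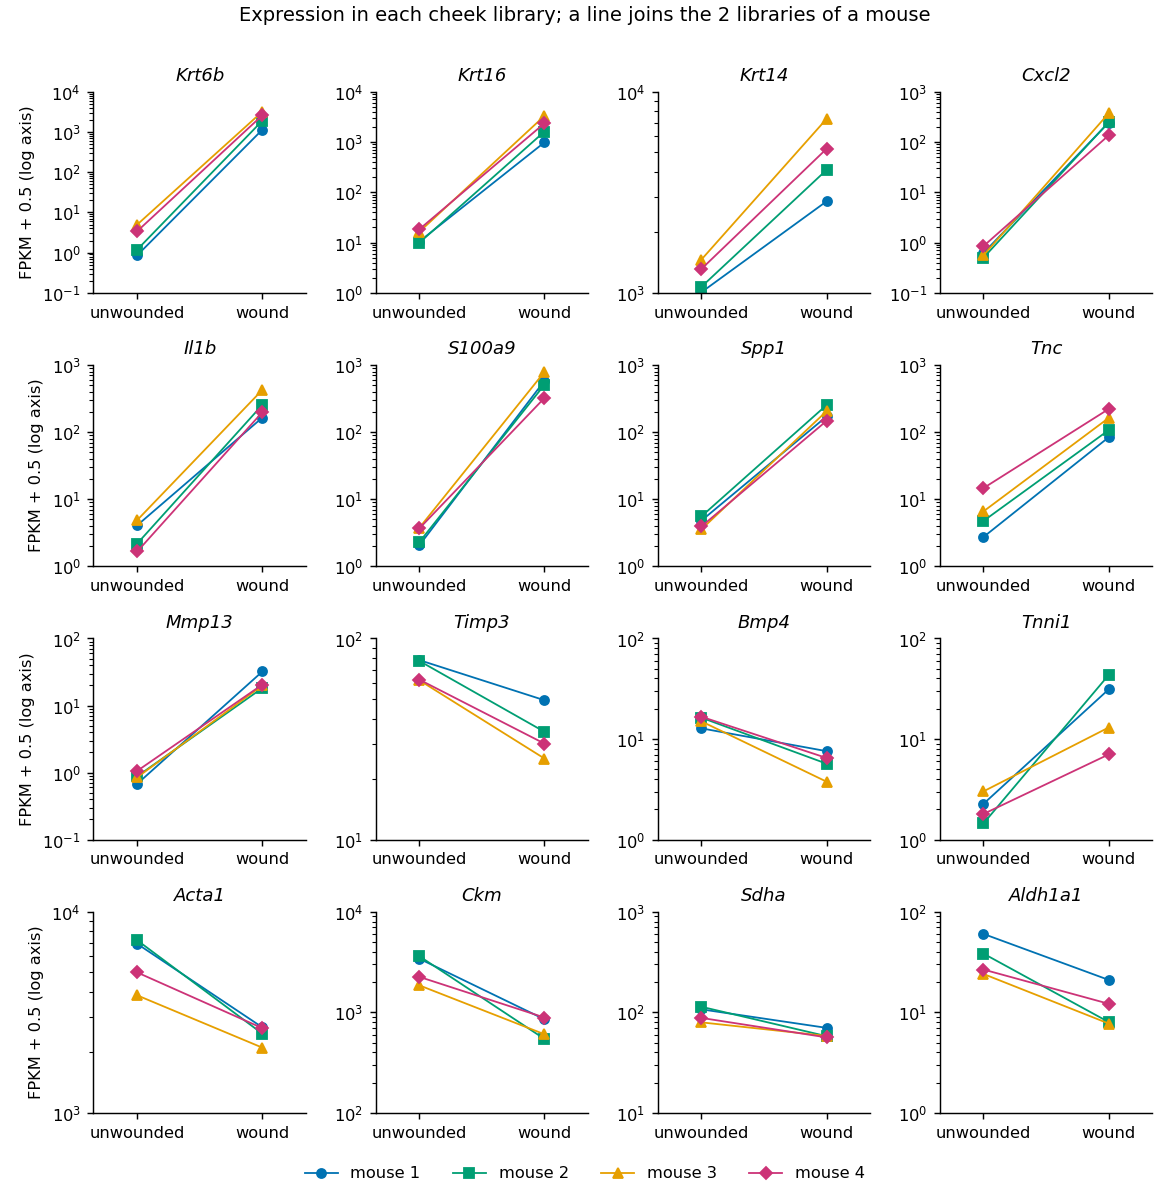
FPKM + 0.5 (log axis) of 16 genes in the unwounded and the wound library of each cheek mouse, with a line joining the libraries of a mouse. Krt6b, Cxcl2, Il1b, S100a9, Spp1, Tnc, Mmp13 and Tnni1 climb in every mouse, while Timp3, Bmp4, Acta1, Ckm, Sdha and Aldh1a1 are lower in the wound of every mouse; Acta1 and Ckm did not pass the test.

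Monocyte and macrophage genes rose less steeply from a higher baseline. Of 27, 16 rose and none fell (13 to 15 without any 1 cheek mouse), with a median of 1.25. Cd14, the lipopolysaccharide co-receptor, went from 8.33 to 16 FPKM to 183, 239, 404 and 177 (4.22, SE 0.24), and Trem2, a lipid-sensing receptor of tissue macrophages, from 2.54 to 4.75 to 22.4 to 41.8 (3.12, SE 0.20). Arg1, arginase 1, rose by 2.67 (SE 0.26) and Nos2, which competes for the same substrate, by 1.60 (SE 0.22), reaching 1.05 to 3.14 FPKM. General lineage genes changed less: Adgre1 (F4/80) by 1.25 (SE 0.10) and Csf1r by 0.81 (SE 0.11). Retnla, a marker of alternatively activated macrophages, went the other way in all 4 mice, from 689, 115, 109 and 143 FPKM to 213, 18.1, 7.54 and 31.8 (-2.56, SE 0.67, adjusted p = 0.013). In complement, the receptors C3ar1 (2.45, SE 0.12) and C5ar1 (1.50, SE 0.15) rose with Cfb and Cfp, whereas the inhibitor Cd59a fell by 0.84 on the log2 scale (SE 0.14), making 4 of 20 higher and 1 lower (2 to 4 and 0 to 2 without any 1 cheek mouse). C7 changed by -2.79 (adjusted p = 0.0019), from 71.9 to 143 FPKM to 4.12 to 43.5.

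Other immune lineages showed few calls. Among 15 Langerhans cell, dendritic cell and MHC class II genes only the integrin Itgax rose (1.74, SE 0.18). Its group's medians in single mice ran from -0.33 to 1.14, and Cd207, langerin, changed by -0.66 (adjusted p = 0.094). Of 17 T cell genes 3 rose, among them Cd4 (1.46, SE 0.17) and Gzma (2.29, SE 0.27), while Cd3g changed by -0.84 (adjusted p = 0.0017). Of 11 mast cell genes 2 rose: Hdc, the histamine-forming enzyme that neutrophils make too, from 0.67 to 1.76 FPKM to 23.1 to 52.02 (4.21, SE 0.20), and Tpsab1 (2.56, SE 0.26). The mast cell proteases Cpa3 and Mcpt4 changed by 0.22 (adjusted p = 0.53) and 0.12 (adjusted p = 0.77). No red blood cell gene of 5 passed.

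None of 30 interferon-stimulated genes passed, and 9 were higher at an adjusted p below 0.05. In all 4 mice 21 of the 30 were higher in the wound, and none was lower in all 4. Their median change was 0.76, with 0.21 in mouse 1 and 0.79 to 1.06 in the others. Isg15, a ubiquitin-like effector, was at 12.6, 23.8, 10.1 and 11.97 FPKM in unwounded skin and at 30.9, 73.95, 45.1 and 39.3 in wounds (1.67, SE 0.63, adjusted p = 0.061), and Ifit1 at 2.26 to 6.48 and then 2.21 to 10.5 (0.55, adjusted p = 0.58). The standard errors are pooled over sites, so these missing calls rest also on the spread in abdomen and back. Changes of Isg15 ran from 1.26 to 2.11 in single cheek mice. Its wound levels ranged from 15.4 to 242 FPKM in abdomen and from 10.5 to 310 in back. Isg15 passed the threshold in 1 of 15 alternative settings (adjusted p = 0.000999). The group median was 2.19 in abdomen and 1.22 in back, but no member differed between cheek and the other sites by its contrast. That contrast rests on the same pooled spread.

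Most proteases that clear and remodel matrix, counted with their inhibitors, were higher in the wound. Of 32, 19 rose and 1 fell (14 to 16 rose without any 1 cheek mouse), with a median of 1.36. The collagenase Mmp13 went from 0.18, 0.38, 0.35 and 0.56 FPKM to 31.7, 17.8, 19.5 and 20.03 (4.69, SE 0.25), and the stromelysin Mmp10, a keratinocyte leading-edge gene, from 0.28 or less to 4.57 to 8.15 (3.35, SE 0.21). The urokinase receptor Plaur rose by 3.20 (SE 0.20), more than urokinase itself, Plau, at 1.05 (SE 0.15). Inhibitors of metalloproteinases split: Timp1 rose by 3.66 (SE 0.24), Timp3 fell by 1.05 on the log2 scale (SE 0.14) and Timp2 changed by -0.48 (adjusted p = 0.042). Mmp2, a fibroblast gelatinase, was at 237 to 378 FPKM before and 243 to 464 after (0.20, adjusted p = 0.44).

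About as many provisional and matricellular matrix genes rose as did not pass, and the main fibrillar collagens did not rise. Tnc, tenascin C, went from 2.23, 4.24, 6.08 and 14.1 FPKM to 83.2, 106, 162 and 221 (4.49, SE 0.30), and Spp1, osteopontin, from 3.05 to 5.04 to 171, 253, 205 and 147 (5.44, SE 0.38). The hyaluronan synthase Has2 rose by 1.61 (SE 0.21) and Thbs1, thrombospondin 1, by 1.74 (SE 0.27). In this group 13 of 27 rose and none fell (7 to 9 rose without any 1 cheek mouse). Its most abundant member pointed the other way: Sparc, a collagen-binding protein, was at 3686, 4465, 3311 and 2131 FPKM in unwounded skin and at 2077, 1332, 1261 and 2132 in wounds (-0.99, adjusted p = 0.0031). With Sparc included, the summed level of the group was 4350, 5171, 3997 and 2750 FPKM before and 3420, 2744, 2629 and 3512 after. Fn1, fibronectin, at 112 to 147 FPKM in unwounded skin and 115 to 222 in wounds, changed by 0.13 (SE 0.21, adjusted p = 0.66).

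Col1a1 was at 3065, 3691, 3641 and 2452 FPKM in unwounded skin and at 2052, 1286, 1417 and 2619 in wounds (-0.84, SE 0.21, adjusted p = 0.0073), with mouse 4 the exception in direction. Col1a2 changed by -1.06 (adjusted p = 0.0021) and Col3a1 by -0.30 (adjusted p = 0.25). Minor and basement membrane chains rose instead: Col12a1, which binds to fibril surfaces, by 2.68 (SE 0.24), Col5a3 by 1.69 (SE 0.16), Col18a1 by 1.05 (SE 0.10) and the vascular basement membrane chain Col4a1 by 0.87 (SE 0.13). The alternative type IV chains Col4a3, Col4a4 and Col4a6 fell by 0.97, 1.14 and 1.12 on the log2 scale. Over the 30 chains 8 rose and 3 fell (5 or 6 and 0 to 5). Of 23 enzymes that modify and cross-link collagen 8 rose and none fell (4 to 7), with the lysyl oxidase Loxl3 at 1.66 to 2.04 FPKM and then at least 9 and at most 11.6 (2.18, SE 0.19) and the prolyl hydroxylase subunit P4ha3 at 0.10 or less and then 3.37 to 5.75 (3.05, SE 0.36).

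Fibroblast and elastic fibre genes divided in a similar way. Bgn, biglycan, rose by 1.02 (SE 0.10), and the elastic fibre genes Emilin1 and Efemp2 by 1.42 (SE 0.11) and 1.75 (SE 0.14), while Ltbp4, Omd and Ecm2 fell (5 of 25 higher and 3 lower, with 3 to 5 and 0 to 3 without any 1 cheek mouse). Crabp1, a retinoic acid binding protein of some dermal fibroblasts, went from 26.3, 31.2, 42.2 and 32.7 FPKM to 107, 149, 175 and 207 (2.23, SE 0.14), and Prg4, lubricin, from 0.33 to 0.86 to 5.74 to 15.8 (3.42, SE 0.32). Pdgfra, which marks fibroblasts in general, changed by 0.59 (adjusted p = 0.012). Of the other fibroblast genes, Abca8a fell by 1.46 on the log2 scale (SE 0.17), and Clec3b, at 150 to 263 FPKM before and 45.3 to 152 after, changed by -1.24 (adjusted p = 0.0019). Acta2, the actin of smooth muscle and myofibroblasts, was at 78 to 91.2 FPKM in unwounded skin and 93.5 to 143 in wounds, higher in each mouse (0.43, adjusted p = 0.0088). Of 15 smooth muscle, pericyte and myofibroblast genes 1 rose, Mcam, and none fell, but at an adjusted p below 0.05 there were 7 lower and 3 higher, with a median of -0.38. Myl9, a myosin light chain, changed by -0.60 (adjusted p = 0.0031) and the pericyte channel gene Kcnj8 by -0.75 (adjusted p = 0.0023).

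Of 28 blood vessel genes 8 rose and none fell (3 to 7 rose without any 1 cheek mouse), with a median of 0.48 and values from -1.03 to 2.23. The endothelial cadherin Cdh5 rose by 0.71 (SE 0.12) and Pecam1 by 0.63 (SE 0.11). Apln, apelin, a tip cell ligand, went from 1.92, 1.49, 1.18 and 0.88 FPKM to 6.56, 11.6, 7.36 and 7.65 (2.23, SE 0.20), and its receptor Aplnr rose by 1.08 (SE 0.14). The leukocyte adhesion molecules Vcam1 and Icam1 rose by 1.40 (SE 0.15) and 0.80 (SE 0.13). Vegfa changed by 0.62 (adjusted p = 0.0043) and its relative Vegfb by -1.03 (adjusted p = 0.0042). Among 6 lymphatic genes none rose, and Ptpn14 fell by 0.76 on the log2 scale (SE 0.13), a call lost whichever cheek mouse was left out.

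Growth factor genes moved in opposite directions within families. Among EGF receptor ligands Hbegf, released at wound margins, went from 2.02 to 3.38 FPKM to 9.63, 8.92, 15.9 and 16.3 (2.02, SE 0.18), whereas Btc, betacellulin, fell by 1.26 on the log2 scale (SE 0.19). In the TGF-beta superfamily Tgfb1 rose from 31.9, 26.1, 34.2 and 27.6 FPKM to 66.9, 74.1, 72.5 and 63.1 (1.20, SE 0.15) and the activin chain Inhba by 1.55 (SE 0.23). Bmp4 fell by 1.41 on the log2 scale (SE 0.20), from 12.3 to 16.2 FPKM to 3.27 to 7.08, along with Bmp7 and the BMP target Id3. Over 30 genes of that superfamily 2 rose and 3 fell (1 or 2 and 0 to 2 without any 1 cheek mouse), and the calls of Bmp7 and Id3 were lost whichever mouse was left out. Of 32 Wnt pathway genes none rose and 3 fell, the agonist Rspo1 (-1.05, SE 0.16), the receptor Fzd4 (-1.06, SE 0.18) and the inhibitor Sfrp1 (-0.73, SE 0.13), with 0 or 1 lower without any 1 cheek mouse and 6 with quantile normalisation. At an adjusted p below 0.05, 15 Wnt genes were lower, against 5 without mice 3 and 4. Among 33 axon guidance genes 4 rose, Plxnd1, Sema7a, Ephb2 and Slit2 (2 or 3 without any 1 cheek mouse).

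Some immediate early and stress genes were higher in the wound. Of 27 AP-1 and immediate early factors 7 rose and none fell (3 to 6 without any 1 cheek mouse). Junb went from 57.3, 54.7, 63.9 and 84.02 FPKM to 144, 184, 227 and 162 (1.46, SE 0.13), and Fosl1, which acts with Jun proteins in migrating keratinocytes, from 0.34 to 2.60 to 4.18 to 8.32 (2.31, SE 0.38). Fos changed by 1.74 (adjusted p = 0.0028) and Fosb by 0.28 (adjusted p = 0.71), with unwounded samples of Fosb spread from 0.25 to 17.6 FPKM. Hmox1, haem oxygenase, rose by 2.00 (SE 0.15), and Ptgs2, the inducible cyclooxygenase, from 0.44 to 1.20 FPKM to 9.49, 14.5, 25.9 and 16.5 (3.82, SE 0.26), whereas constitutive Ptgs1 changed by 0.05 (SE 0.13, adjusted p = 0.80). Eicosanoid genes in all had 6 of 22 higher and none lower (2 to 4), and genes of the NRF2 antioxidant response 3 of 20 higher and none lower (1 to 4).

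Of 27 glycolysis and hypoxia genes 11 rose and none fell (5 to 11 without any 1 cheek mouse), among them the glucose transporter Slc2a1, from 20.6, 13.98, 16.6 and 18.5 FPKM to 55.1, 72.6, 99.4 and 69.5 (2.04, SE 0.17), and the enolase Eno1 (1.55, SE 0.13). The aldolase Aldoa, the main form in muscle, was lower in every mouse, at 1869 to 3891 FPKM before and 1230 to 1402 after (-1.10, adjusted p = 0.010). The summed level of the glycolysis group was 8841, 10602, 5908 and 7559 FPKM before and 6181, 6771, 6912 and 6200 after, higher only in mouse 3. Of 27 oxidative phosphorylation genes 9 fell and none rose (0 to 4), with a median of -0.58, and 26 of the 27 were lower in all 4 mice. Sdha, a subunit of complex II, went from 107, 113, 79.2 and 87.7 FPKM to 69.8, 57.6, 57.9 and 56 (-0.67, SE 0.10). Muscle levels moved with this group and with Aldoa: the summed level of 34 skeletal muscle genes was 35176, 39595, 19640 and 24127 FPKM in unwounded skin and 11399, 9538, 7624 and 10373 in wounds, and the muscle forms Cox7a1 and Cox8b changed by -2.23 and -1.78 (adjusted p = 0.011 and 0.015), more than the 9 genes that fell. The part of muscle content in the group's change was not tested.

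Genes of mature muscle fibres were lower in wounds without passing the threshold. The median over 34 genes was -1.38, from -1.24 to -1.68 in single mice, 28 of them were lower in all 4 mice, and 5 reached an adjusted p below 0.05. Ckm, muscle creatine kinase, went from 3422, 3626, 1859 and 2258 FPKM to 854, 544, 606 and 890 (-1.92, SE 0.72, adjusted p = 0.059). The standard errors are pooled over sites, so the missing calls rest also on the spread in abdomen and back. There the summed level of the list ran from 925 to 25227 FPKM and from 4922 to 34941, wounds included. The 2 genes of the list that rose (0 to 2 without any 1 cheek mouse), Tnni1 and Tnnc1, encode slow fibre troponins that immature fibres also carry. Tnni1 went from 1.77, 0.95, 2.52 and 1.30 FPKM to 30.7, 42.8, 12.5 and 6.53 (3.19, SE 0.42).

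Some genes of regenerating muscle rose at the same time. Mymk, the myoblast fusion protein myomaker, went from 0.23, 0.90, 0.53 and 0.15 FPKM to 31.1, 58.9, 19.8 and 6.72 (4.65, SE 0.29), Myh3, embryonic myosin, from 0.23 or less to 17.7, 33.7, 12.9 and 3.27 (4.44, SE 0.35), and Actc1, the actin of embryonic muscle, from 1.10 to 1.67 to 98.6, 190, 64.7 and 20.2 (5.32, SE 0.40). Mouse 2 was highest and mouse 4 lowest each time. In this group 4 of 18 rose and none fell (3 to 5), with medians of 2.27, 2.36, 1.51 and 0.69 in mice 1 to 4. Myog, myogenin, was higher in each mouse (2.30, adjusted p = 0.012), and the satellite cell factor Myf5 changed by -0.06 (SE 0.17, adjusted p = 0.82).

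Few lipid, gland and clock genes passed the threshold. Of 19 adipocyte genes Plin4, a lipid droplet coat protein, fell (-1.04, SE 0.17), none rose, and 12 were lower at an adjusted p below 0.05. Of 16 sebaceous gland genes 8 were lower at that looser threshold (4 without mouse 4 and 1 without mice 3 and 4), with medians of -0.11, -0.09, -0.85 and -0.37 in mice 1 to 4, and none fell at the stricter threshold. Fabp5, a fatty acid binding protein also abundant in activated keratinocytes, rose by 1.70 (SE 0.17). Among 20 cholesterol synthesis genes Lss fell by 0.51 on the log2 scale (SE 0.07). The clock repressors Nr1d2 and Cry2 fell by 0.68 and 0.74 (2 of 19, 0 to 3 without any 1 cheek mouse), and Dbp, an output factor of the clock, changed by -0.93 (adjusted p = 0.0029), whereas Clock and Arntl changed by 0.19 (adjusted p = 0.26) and -0.10 (adjusted p = 0.38). The times of collection were not compared.

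Of 36 retinoid and detoxification genes 2 fell (1 to 3 without any 1 cheek mouse). Aldh1a1, a retinaldehyde dehydrogenase, went from 59.9, 37.95, 23.6 and 26.2 FPKM to 20.6, 7.53, 7.26 and 11.7 (-1.64, SE 0.18, adjusted p = 3.8e-05), and the monooxygenase Fmo2 fell by 0.84 on the log2 scale (SE 0.13). The retinoic acid forming enzyme Aldh1a3 changed by 1.50 (adjusted p = 0.025), lower in mouse 4 and higher in the other 3.

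Among called genes with a mean of at least 5 FPKM in the higher state, the 10 deepest falls were spread over unlike functions. Gng13, a G protein gamma subunit of sensory cells, went from 11.72, 14.97, 14.43 and 11.96 FPKM to 3.93, 2.89, 1.22 and 2.42 (-2.22, SE 0.32), and Myoc, myocilin, from 6.39 to 27.5 to 0.95 to 4.51 (-2.06, SE 0.33). The glutamine transporter Slc38a3 changed by -1.96 (SE 0.22) and Pcp4l1 by -1.82 (SE 0.18), followed by Aldh1a1, the transsulphuration enzyme Cbs (-1.63, SE 0.20), the claudin Cldn10 (-1.62, SE 0.25), Cpxm2 (-1.60, SE 0.25) and the homeobox gene Sebox (-1.52, SE 0.23). Gabrp, a GABA receptor subunit, fell by 2.02 on the log2 scale (SE 0.29), but its unwounded level in mouse 4 was 15.5 FPKM against 1.86 to 2.10 in mice 1 to 3, and the change was -1.51 without that mouse. Cbs had its highest unwounded level in the same library, 19.1 against 4.44 to 8.53 FPKM (-1.36 without that mouse). Without mice 3 and 4 neither passed the threshold, with adjusted p of 0.0016 for Gabrp and 0.0013 for Cbs.

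**Figure D3:**
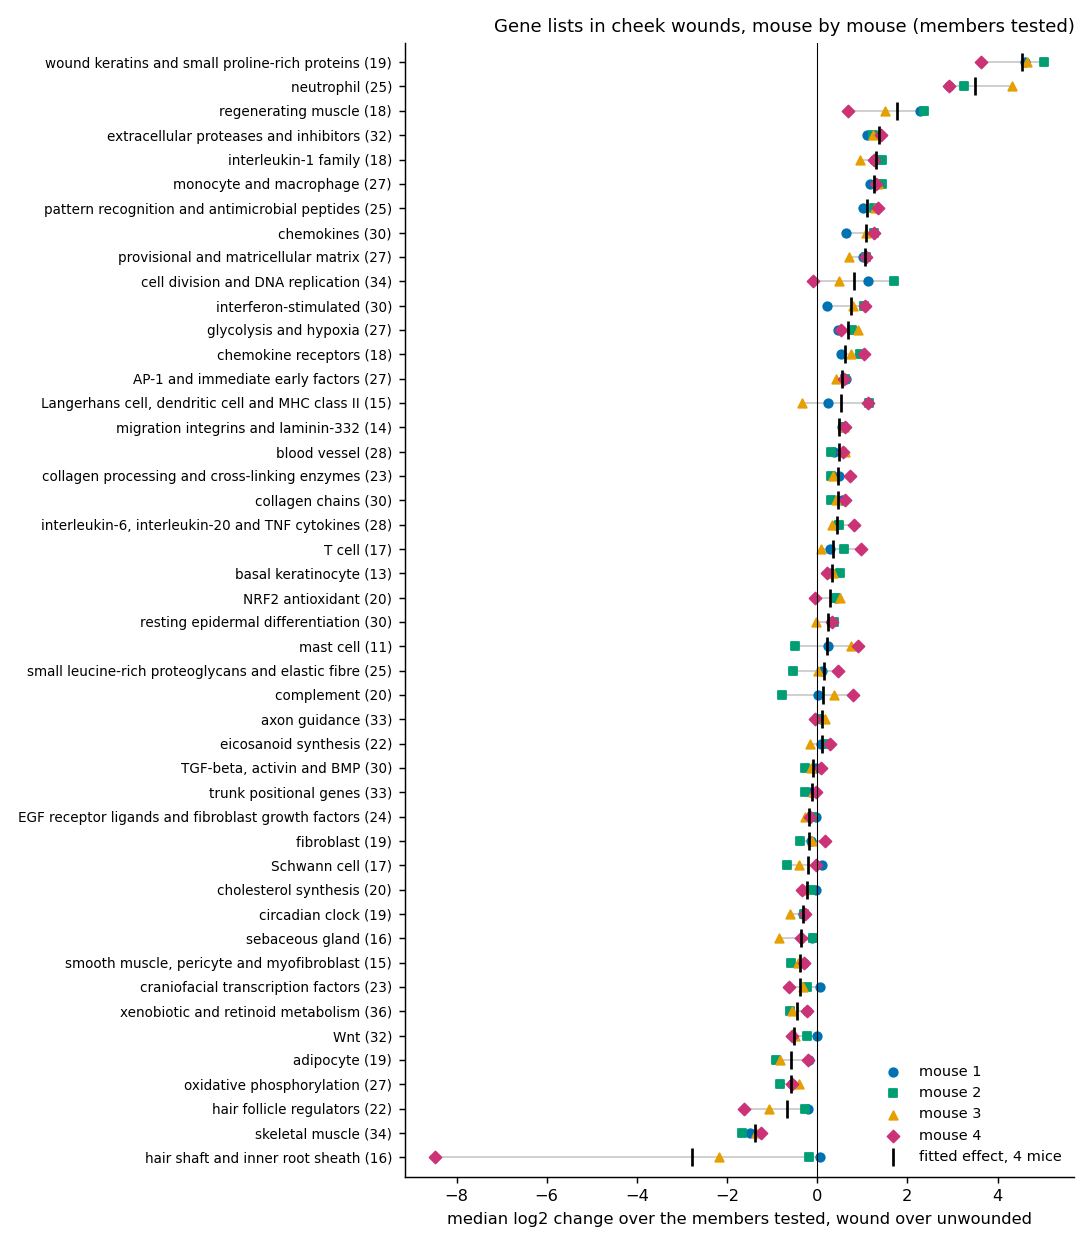
Median log2 change, wound over unwounded (horizontal axis), over the tested members of each gene list (rows, members tested in brackets), with a coloured symbol for each cheek mouse and a black bar for the median of the fitted effects. The wound keratin (4.53) and neutrophil (3.51) lists lie farthest to the right in all 4 mice, whereas hair shaft genes run from 0.07 in mouse 1 to -8.48 in mouse 4. Some of the 16 hair shaft genes passed the filter only with libraries of mice 3 and 4.

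Cell division and hair genes differed most between mice. Over 34 division genes the median change was 1.13, 1.70, 0.47 and -0.09 in mice 1 to 4. Mki67 was at 4.88, 3.98, 11.1 and 17.7 FPKM in unwounded skin and at 11.2, 16.2, 17.5 and 12.9 in wounds (0.80, SE 0.30, adjusted p = 0.055). Wound levels lay close together, and it was the unwounded levels that set the mice apart, with mice 3 and 4 high. None of the 34 genes passed the threshold and 23 were higher at an adjusted p below 0.05. Plk1, a mitotic kinase, was the gene with the smallest p (1.52, SE 0.28, adjusted p = 0.0016). Without mouse 4, 12 of the 34 rose and the median was 1.14, and without mice 3 and 4, 8 rose and the median was 1.45.

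Hair shaft and inner root sheath genes had a median of -2.78, made up of 0.07, -0.19, -2.18 and -8.48 in mice 1 to 4, and none of 16 passed the threshold. Without mouse 4 the filter kept 11 of these genes (median -1.13), and without mice 3 and 4 it kept 10 (median -0.28). The others needed libraries of those mice to pass the filter, so these medians cover different genes. Krt75, a companion layer keratin, was at 37.1, 36.5, 51.7 and 156 FPKM in unwounded skin and at 17.8, 11.8, 15.3 and 20.6 in wounds (-1.81, SE 0.32, adjusted p = 0.0014). It was lower in the wound of each mouse, also in mice 1 and 2, where most hair genes hardly moved. Of 22 regulators of the follicle 1 fell, Edar, the ectodysplasin receptor (-1.04, SE 0.18). At an adjusted p below 0.05, 17 were lower, against 4 of the 20 still tested without mice 3 and 4. Melanocyte genes showed the same order of mice, with medians of -0.18, -0.28, -1.41 and -1.57.

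**Figure D4:**
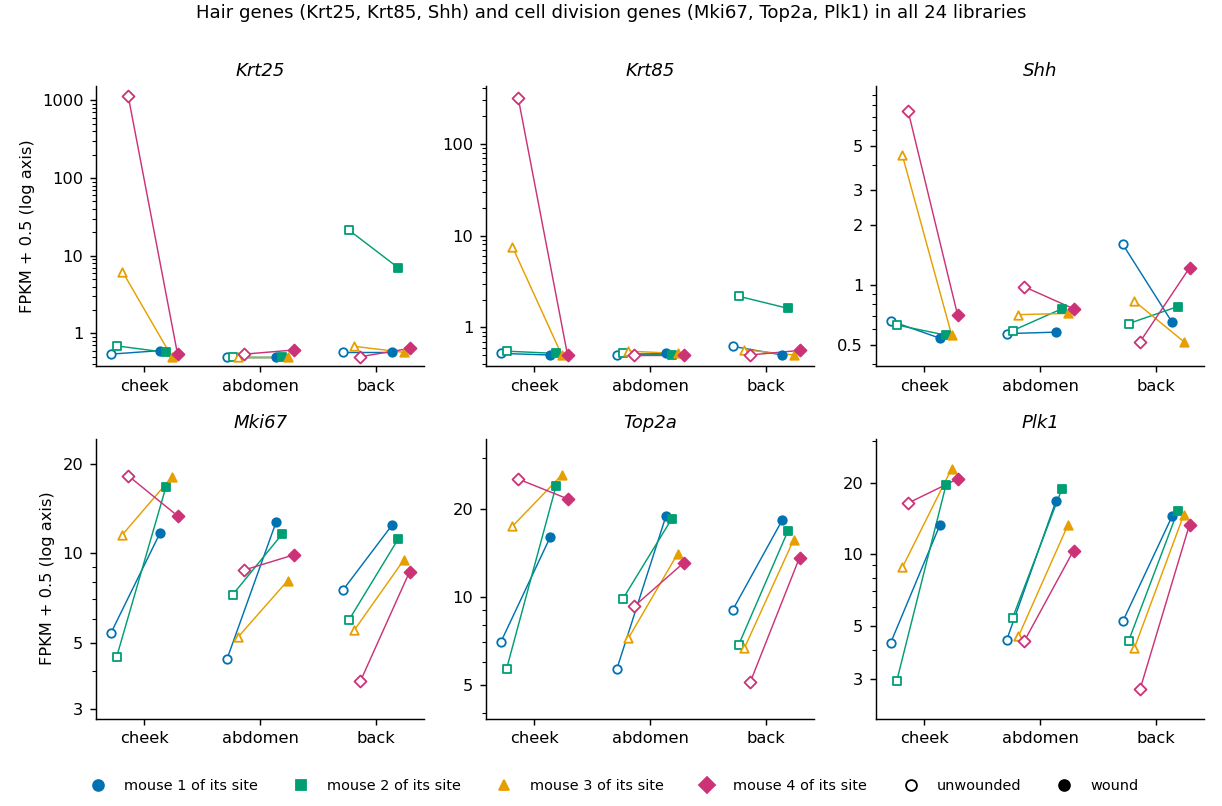
FPKM + 0.5 (log axes) of 3 hair genes (Krt25, Krt85, Shh) and 3 cell division genes (Mki67, Top2a, Plk1) in all 24 libraries, open symbols for unwounded skin and filled symbols for wounds, joined within a mouse. Unwounded cheek of mouse 4 is the highest unwounded sample in every panel, and unwounded cheek of mouse 3 the next highest for Krt85, Shh, Mki67, Top2a and Plk1.

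Abdomen and back skin changed in the same direction for nearly all of these genes. Of the 938 genes that rose in cheek, 936 were higher in abdomen and 937 in back wounds, and 864 and 930 had an adjusted p below 0.05 there. Of the 316 that fell, 313 and 314 were lower and 253 and 300 had an adjusted p below 0.05. The matching shares of all tested genes in abdomen and back were not counted, so these counts have no background beside them. The wound effect in cheek was tested against the mean of the effects at the other sites, and 3 of 14423 genes differed at an adjusted p below 0.05 (0.0208%): Abcc3 and Syt13 above (0.0139%) and Hand2 below (0.00693%). Against abdomen alone 1 gene differed, Abcc3 (0.00693%), and against back alone 4 (0.0277%), with 2 above (0.0139%) and 2 below (0.0139%).

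Abcc3, an export pump of the ABC family for conjugated compounds, on chromosome 11 at 94343295 to 94393017, was at 1.15, 1.16, 1.25 and 1.04 FPKM in unwounded cheek and at 4.85, 5.80, 6.39 and 6.16 in cheek wounds (1.93, SE 0.09). The change was 0.24 in abdomen and 1.24 in back, and the cheek effect exceeded their mean by 1.19 (SE 0.11, adjusted p = 0.0018; 1.07 and 0.17 without mice 3 and 4). Against back alone the cheek effect was not called different (difference 0.69, adjusted p = 0.18). Unwounded cheek lay below unwounded abdomen (2.23 to 3.21 FPKM) and back (1.72 to 2.13). Cheek wounds overlapped back wounds (5.25 to 5.50), so the baseline as well as the wound level enters the contrast. Syt13, a synaptotagmin, went from 0.62 to 1.04 FPKM to 2.71 to 3.83 (1.61, SE 0.15), against 0.26 and 0.35 at the other sites (difference 1.30, adjusted p = 0.045). That call was lost in 17 of 22 alternative settings.

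Few transcription factors of craniofacial and positional identity passed the test. Hand2, a neural crest and limb factor, went from 1.64, 1.03, 2.23 and 2.69 FPKM to 0.13, 0.10, 0.05 and 0.60 (-1.74, SE 0.16, adjusted p = 5.3e-06). It changed by -0.31 in abdomen, where it was also expressed, and the cheek effect was not called different from that. In back it was at 0.09 FPKM or less, so it could hardly fall there. The cheek effect differed from the mean of the others by -1.59 (adjusted p = 0.012), but not without cheek mouse 1 (adjusted p = 0.091) or without mice 3 and 4 (adjusted p = 0.23). Among 23 craniofacial factors Hand2 was the only call, with 9 lower and 3 higher at an adjusted p below 0.05 (2 and 1 without mice 3 and 4). Their median was -0.39, made up of 0.06, -0.22, -0.31 and -0.62 in mice 1 to 4, and 0.02 over the 21 genes still tested without mice 3 and 4. Alx4 and Msx1 changed by -1.05 and -1.13 (adjusted p = 0.0018 and 0.0071), and Msx1 by -0.74 without mouse 4 (adjusted p = 0.029), whose unwounded level was 12.7 FPKM against 3.24 to 4.60. Pitx1 pointed the other way, from 0.19 to 0.30 FPKM to 0.71 to 3.24 (1.48, adjusted p = 0.0021).

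Of 33 trunk positional genes, whose median was -0.11, 4 fell (2 without any 1 cheek mouse), all at low levels: Hoxc6, from 2.67, 3.51, 3.20 and 4.59 FPKM to 0.40, 0.97, 0.30 and 1.97 (-1.63, SE 0.18), Hoxc4 (-1.10, SE 0.17), Hoxc5 (-0.95, SE 0.16) and Tbx5 (-1.11, SE 0.15). Hoxc6 changed by -0.06 in abdomen and -0.59 in back, where its level was higher, and the difference of the cheek effect from their mean had an adjusted p of 0.11. Slit2, an axon guidance ligand, was at 2.45, 2.15, 2.32 and 2.21 FPKM in unwounded cheek and at 3.91, 4.42, 3.68 and 3.97 in wounds (0.69, SE 0.11, adjusted p = 0.00052). It did not pass when any 1 of the cheek mice was left out. Its change was 0.01 in abdomen and 0.05 in back, and the contrast of sites had an adjusted p of 0.27, so a difference between sites was not shown.

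**Figure D5:**
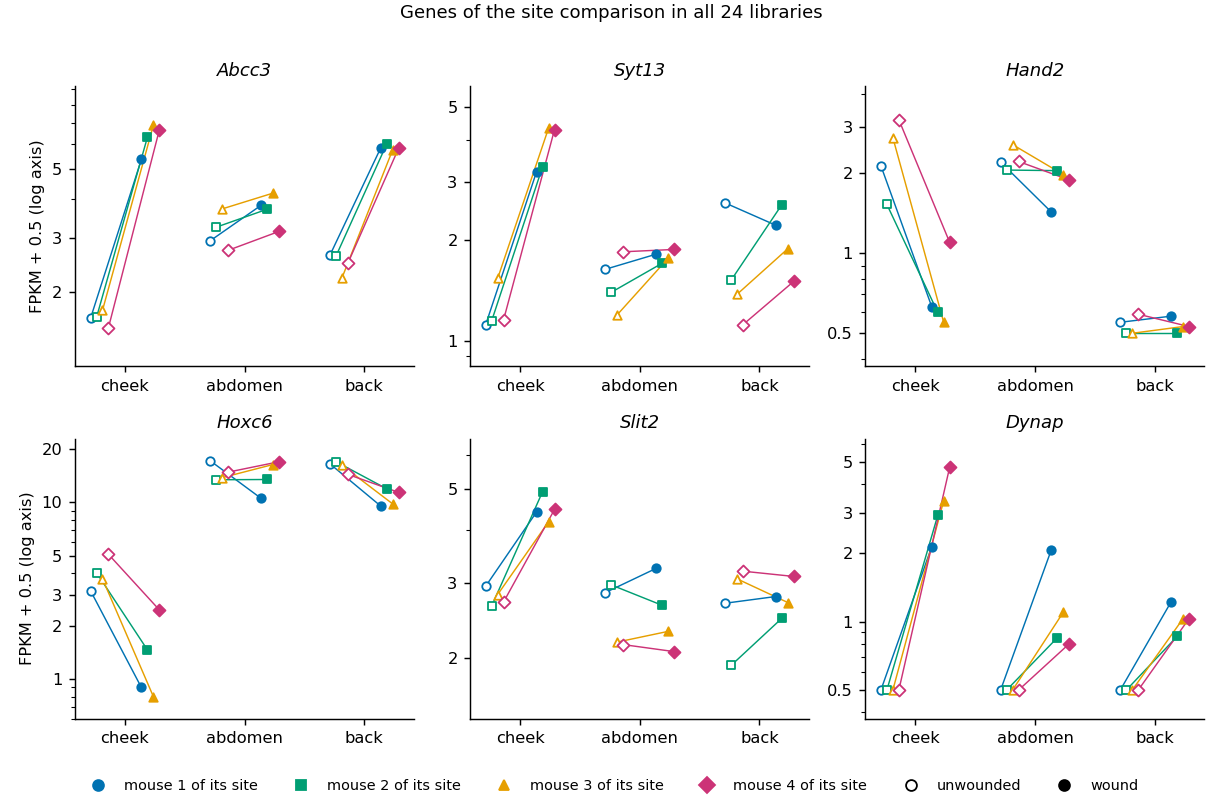
FPKM + 0.5 (log axes) of 6 genes in all 24 libraries by site, open symbols for unwounded skin and filled symbols for wounds, joined within a mouse. Abcc3 and Syt13 rise and Hand2 and Hoxc6 drop in all 4 cheek mice. Dynap, listed at 0 in all unwounded samples, reaches 1.63 to 4.26 FPKM in cheek wounds, 0.30 to 1.57 in abdomen wounds and 0.36 to 0.72 in back wounds. Its cheek effect was not called different from the mean of the other sites (adjusted p = 0.115).

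The other calls of the contrasts came from the comparison with back. Degs2, a ceramide-forming desaturase, was at 7.14, 7.96, 14.9 and 24.7 FPKM in unwounded cheek and at 29.9 to 38.1 in cheek wounds (1.43, adjusted p = 0.0020), a smaller change than the 4.61 in back (difference -3.17). In back it was at 0.64 to 1.50 FPKM in unwounded skin and at 31.6 to 42.3 in wounds. Wound levels of the sites thus overlapped, and the higher unwounded level in cheek entered the contrast. Gm21320 changed by 0.42 in cheek (adjusted p = 0.12) and by -1.89 in back. Hoxa10 was listed at 0 or 0.03 FPKM in all cheek libraries, so its contrast with back (1.50) came from back skin. Gpc3, a glypican named by the study, was lower in each cheek wound, at 14.3, 21.7, 15.1 and 29.5 FPKM before and 10.3 to 10.7 after (-0.85, adjusted p = 0.0034), and Churc1 changed by -0.13 (adjusted p = 0.54).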

How the data were processed

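RNA from whole skin of 4 cheek, 4 abdomen and 4 back mice (24 libraries) had been sequenced, and FPKM per gene was deposited by the authors; their processing notes name HISAT2, Bowtie2 2.2.5, RSEM 1.2.12 and the mouse genome build GRCm38. The deposited columns of group comparisons, which hold fold changes and p-values, were not used. Values were taken as deposited and analysed as log2(FPKM + 0.5) in R 4.3.3 with limma 3.58.1 and statmod 1.5.0 (trend, robust, residual degrees of freedom 9). All 24 libraries entered the fit, with 1 term per mouse and a wound effect per site, with Benjamini-Hochberg adjustment over the tested genes. The test was limited to genes reaching 0.5 FPKM in 4 or more libraries. Wound and unwounded libraries of a cheek mouse deviated together (mean correlation 0.281, lowest 0.121), and the labels tie them to an animal. Deviations were taken from the mean of each group. That centring makes the mean for different mice (-0.0958) negative when the same-mouse mean is positive, so it is no separate comparison.

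Named genes are the 10 largest rises and falls, the genes with the smallest p in each direction of each list, the genes of the site contrasts and those the study names; other list members were named for their role. The 52 lists and the members described were chosen with earlier results of these data known. The script was tested on simulated data. Pseudocount, filter, scaling, moderation, block and left-out mice were varied. Coordinates and upstream sequences come from RefSeq (GRCm38.p6). FPKM carries no read depth, so no counting interval is given. Some results are not reported here.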

Additional observations from a re-analysis of the deposited data

Results flagged for a closer look

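Of 156 groups of 4 libraries or mice checked for a lone value by Dixon's gap-to-range ratio, 7 exceeded its 95% limit. That share is no higher than the 1 in 20 or so that chance gives. Mouse 4 accounts for 5 of them. Its wound was lowest in summed chemokine receptor genes, 203.66 FPKM against 240 to 241 in the other wounds, and in summed monocyte and macrophage genes, 2760.3 FPKM against 3977 to 4056. Its unwounded skin was highest in hair shaft and inner root sheath genes, 11244 FPKM against 90 to 173, and in salivary and lacrimal gland genes, 82.13 FPKM against 38.3 to 41.3. In the last group the carbonic anhydrase Car6, at 69.3 FPKM against 9.48 to 17.98, held most of that sum. The log2 change of Syt13 was 1.8869 in mouse 4, against 1.49 to 1.53 in the other 3 mice.

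The log2 change of Mettl21e was -2.6909 in mouse 2, against -1.62 to -1.45 in the other 3 mice. That of Hoxa10 was -0.084064 in mouse 3, from 0.03 FPKM in 1 library and 0 in the rest.

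By the test of the difference itself, the wound effect in cheek departed from the mean of abdomen and back for Abcc3 (1.191 on the log2 scale), Syt13 (1.3021) and Hand2 (-1.5858). It departed from abdomen for Abcc3 (1.6925), and from back for Gm21320 (2.3064), Hand2 (-1.742), Degs2 (-3.1747) and Hoxa10 (1.4994). The adjusted p values ran from 0.000154 to 0.0453.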

How the results depend on the processing

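No named gene that passed its test changed direction under any alternative run. Of those that did not pass, 19 had the other sign in 1 to 3 of the runs that left out cheek mice, among them Arntl, Car6, Cd163, Cpa3, Fn1, Fosb, Mcpt4, Mmp2, Myf5 and Ptgs1. At an adjusted p below 0.05 instead of 0.001, 5272 genes changed in cheek. Quantile normalisation gave 515 genes lower. The replicate block pairs the libraries of a mouse; with no replicate block 1340 genes changed and 0 differed between cheek and back, and with the replicate block as a random effect 1906 changed (1293 higher, 613 lower) and 2 differed between cheek and abdomen. Cheek libraries alone, with fewer degrees of freedom, gave 248 (229 higher, 19 lower). Without cheek mice 3 and 4, an alternative chosen after seeing the data, 317 changed (301 higher, 16 lower), with 0 genes differing from the mean of the other sites and 0 from back. Leaving out 1 mouse of any site gave 543 to 1503 changed genes, 495 to 1002 higher and 48 to 501 lower, 1 to 5 differing from the mean of the other sites, 1 to 209 from abdomen (209 without abdomen mouse 1) and 0 to 12 from back. The lower count moved by over 1.5 times without back mouse 3 (193), back mouse 2 (200), abdomen mouse 1 (501) and cheek mice 1, 2 and 3 (115, 48 and 66); fewer mice are tested by construction, and the causes were not tested further. Of the named results, 36 to 59 lost their side of the 0.001 threshold when any 1 cheek mouse was left out; 15 wound effects did so whichever mouse it was, among them those of Bmp7, Ccl24, Fosl1, Fzd4, Hoxc5, Id3, Itgb1, Ltbp4, Pecam1, Ptpn14, Sfrp1, Slit2 and Thbs1, and the site contrast of Syt13 was lost at its threshold of 0.05 in each of these runs. With no replicate block 15 named results lost and 10 gained that side. The other counts over all genes stayed within 1.5 times under the remaining settings for pseudocount, filter, scaling and moderation. Depth is unknown, wounds per mouse differed between sites, and 4 mice per site limit the precision.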
